A study of Mus musculus with 8 samples.

Results

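The mevalonate pathway was followed from acetoacetyl-CoA to squalene through 9 liver enzymes, Acat2, Hmgcs1, Mvk, Pmvk, Mvd, Idi1, Fdps, Ggps1 and Fdft1. The genes were taken by symbol, and all 9 had a value in each RNA-seq and Ribo-seq library, out of 24079 symbols shared by both assays. The list does not hold every step of the pathway. Liver came from C57BL/6 mice kept from week 8 on a diet that drew 45% of its energy from fat, either without betaine (HF group) or with 2% (w/v) betaine dissolved in the water (HB group). Livers were taken at an age of 25 weeks. Start and age leave 17 weeks on the diet, as the methods of the study also state, whereas the labels put the feeding at 25 weeks. Each group had 6 mice, and each assay had 2 libraries per group, numbered 1 and 2 (HF1, HF2, HB1, HB2). The methods name the 2 mice of each group nearest to its mean body weight as the source of the sequenced samples, whereas the labels speak of pooled preparations, so replicates are libraries and p-values measure the spread between libraries only. Mice on a standard diet were not analysed here.

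The mevalonate pathway builds sterols and other isoprenoids from acetyl-CoA, and the liver is a major site of it. Its genes are known targets of SREBP2, a transcription factor that is released from the endoplasmic reticulum when membrane cholesterol is low, and NF-Y and Sp1 are known partners of SREBP2 at their promoters. Acat2 makes acetoacetyl-CoA in the cytosol and Hmgcs1 adds the next acetyl group to give HMG-CoA. Mvk, Pmvk and Mvd turn mevalonate into isopentenyl diphosphate, Idi1 converts that into its isomer dimethylallyl diphosphate, and Fdps joins these units into farnesyl diphosphate. At this branch point Fdft1 commits farnesyl diphosphate to squalene, and Ggps1 extends it to geranylgeranyl diphosphate, which anchors small GTPases to membranes.

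RNA-seq measured polyadenylated mRNA. Ribo-seq measured ribosome protected fragments (RPFs), the short stretches of mRNA covered by a ribosome during RNase digestion. Translation efficiency (TE) is RPF RPKM divided by mRNA RPKM, and RPKM is read density per transcript length and sequencing depth. The RNA-seq libraries held 11661207 to 22543471 reads, with both HB libraries deeper than both HF libraries. The Ribo-seq libraries held 387980 (HF1), 1056546 (HF2), 257086 (HB1) and 141890 (HB2) reads, so HB footprints were the shallowest. None of 8 hepatocyte markers was at 0 in all libraries of an assay, and their summed mRNA was 42566 and 42851 RPKM in HF and 52914 and 47537 RPKM in HB. The median log2 change of all tested genes was -0.19 for mRNA and moved to 0.08 when libraries were shifted to a common median. That shift changed the split of called genes from 246 higher and 701 lower in HB to 540 higher and 291 lower.

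At the mRNA level, 8 of the 9 enzymes lay higher in both HB libraries than in both HF libraries, and Ggps1 lay lower. Over all 10687 genes tested, 24.8% lay higher and 43.3% lay lower in this way. The study called mRNAs at an unadjusted p under 0.001 with a log2 fold change of more than 1 in size. By these thresholds 5 of the 9 enzymes rose in HB (Fdps, Idi1, Pmvk, Mvk and Acat2) against a background of 2.3%, and 0 fell against 6.56%. With an adjusted p under 0.05 in place of the unadjusted one, Mvd and Fdft1 also passed, which gave 7 of 9 against 5.01%. The median log2 fold change was 1.51 over the 9 enzymes and -0.19 over all genes tested. In bulk liver, more cells of a type and more RNA per cell cannot be told apart.

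**Figure D1:**
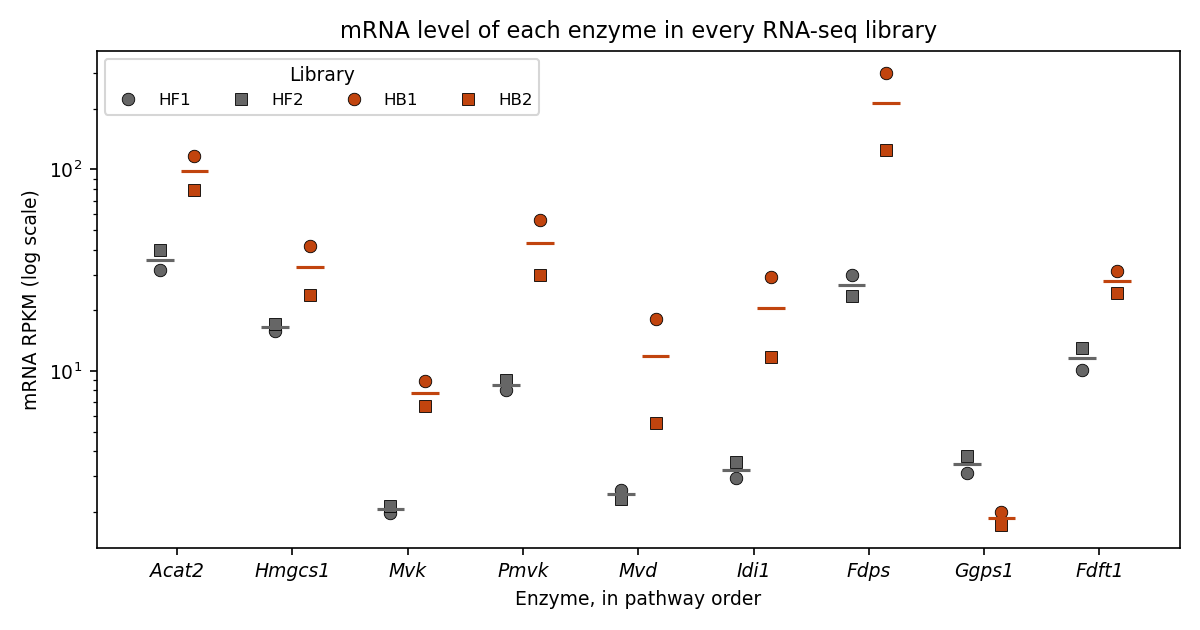
mRNA RPKM (log axis) of each enzyme in pathway order, with grey points for the HF libraries, orange points for the HB libraries, circles for replicate 1, squares for replicate 2 and bars for the group means. The orange points lie above the grey ones for every enzyme except Ggps1, and HB1 lies above HB2 for all 9.

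The first enzymes of the pathway differed in how far they moved. Acat2 was at 31.6 and 39.7 RPKM in HF and at 117 and 78.9 RPKM in HB. The groups did not overlap, and Acat2 rose 2.75-fold in mean RPKM (log2 fold change 1.42 ± 0.28 SE, n = 2 per group, adjusted p = 0.00925, limma). Hmgcs1 was at 15.8 and 17.1 RPKM in HF and at 41.8 and 23.7 RPKM in HB. Its HB libraries were both higher, but they differed from each other by more than HB2 differed from HF, and the change of 0.90 ± 0.30 SE did not pass (adjusted p = 0.0517, limma).

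Of the 3 enzymes that follow mevalonate, Mvk and Mvd had the lowest mRNA levels of all 9 in HF. Mvk, the kinase that adds the first phosphate, was at 1.97 and 2.14 RPKM in HF and at 8.87 and 6.68 RPKM in HB, and it rose 3.78-fold (log2 fold change 1.51 ± 0.25 SE, adjusted p = 0.00583, limma). Pmvk, which adds the second phosphate, was at 8.07 and 8.99 RPKM in HF and at 56.0 and 29.9 RPKM in HB. It rose 5.03-fold (2.14 ± 0.31 SE, adjusted p = 0.00525, limma), and even the lower HB library was far above both HF libraries. Mvd, the decarboxylase that gives isopentenyl diphosphate, was at 2.58 and 2.31 RPKM in HF and at 18.1 and 5.52 RPKM in HB. The 2 HB libraries of Mvd stood 3.29-fold apart, the widest gap among the 9, and its change of 1.70 ± 0.43 SE passed the adjusted threshold (adjusted p = 0.0193, limma) but not the unadjusted one.

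Fdps had the greatest rise of the 9, and Idi1 followed at about the size of Pmvk, which stood above Idi1 when HB1 was left out (1.70 against 1.58). Idi1 was at 2.93 and 3.54 RPKM in HF and at 29.2 and 11.7 RPKM in HB, a 6.32-fold rise in the mean (log2 fold change 2.21 ± 0.38 SE, adjusted p = 0.00596, limma). Fdps was at 30.0 and 23.4 RPKM in HF and at 300.1 and 125 RPKM in HB, a 7.96-fold rise (2.83 ± 0.38 SE, adjusted p = 0.00523, limma). Fdps thereby stood at percentile 99.9 of the log2 fold changes of all genes tested and Idi1 at percentile 99.8.

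The enzymes at the farnesyl diphosphate branch went in opposite directions. Fdft1, squalene synthase, was at 10.1 and 13.0 RPKM in HF and at 31.5 and 24.4 RPKM in HB. Its change of 1.20 ± 0.26 SE passed with the adjusted p (0.0120, limma) and just missed the unadjusted threshold. Ggps1 was at 3.11 and 3.80 RPKM in HF and at 1.99 and 1.71 RPKM in HB, and its change of -0.64 ± 0.24 SE did not pass (adjusted p = 0.0758, limma). The groups of Ggps1 did not overlap, and it was the sole member with the lower mean in HB.

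The order of the mRNA levels per length also changed. In HF, Acat2 (35.7 ± 5.68 RPKM, SD, n = 2) stood first, followed by Fdps (26.7 ± 4.61), Hmgcs1, Fdft1, Pmvk, Ggps1, Idi1, Mvd and Mvk (2.06 ± 0.12). Each enzyme stood apart from the next in that order except Ggps1 and Idi1, whose libraries overlapped. In HB, Fdps (213 ± 124 RPKM) stood first and Acat2 (98.1 ± 27.2) second, and Ggps1 (1.85 ± 0.20) came last. From Pmvk (42.9 ± 18.5) down to Mvk (7.78 ± 1.54), the HB libraries of each enzyme overlapped those of the next, so this stretch of the order was not resolved.

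HB1 exceeded HB2 in mRNA for 9 of 9 enzymes, by 1.16-fold to 3.29-fold, with a median log2 difference of 0.79 against 0.04 over all genes tested. HF1 exceeded HF2 for 2 of 9. The calls were therefore compared without each library, which leaves 1 library in a group and assumes that it varies like those of the other group. Without HB1, 4 enzymes were called higher and Acat2 was not, next to 242 of all 10687 genes, and without HB2 8 were called, Ggps1 being the exception, next to 502. Without HF1, Mvd was called and Acat2 was not. With no filter on low values 0 of 9 were called, although the log2 fold changes stayed the same, and over all 24535 genes 34 were called higher and 38 lower. Across the alternatives the adjusted p ranged from 9.77e-11 to 0.19 for Fdps and from 0.000357 to 0.191 for Acat2.

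The 300-base promoter windows of the RefSeq annotation (GRCm38.p6, 250 bases before to 50 bases after a transcription start) were searched on both strands for 3 motifs of the factors named above, since most of these mRNAs moved together. Windows were found for 7 of the 9 enzymes, in 8 windows, and not for Fdps and Fdft1. The sterol regulatory element in the form TCACNCCAC was found for 1 of the 7, Hmgcs1, and in 1.24% of the 32851 promoters of the table. The NF-Y box CCAAT was found for 6 of the 7 and in 37.4% of all promoters, and the GC box GGGCGG was found for 5 of the 7 and in 35.7%. Mvk had 5 NF-Y boxes, Hmgcs1 4, Ggps1 3, Mvd 2, Idi1 2 and Pmvk 1, while Acat2 had only a GC box. The element of Hmgcs1 and the NF-Y boxes closest to the start of the other genes are shown 5′ to 3′ on the strand of the gene, with the motif in capitals (ATTGG is CCAAT on the opposite strand):
Hmgcs1, sterol regulatory element at -137 to -129 (chr13:119690205-119690231, + strand): gtcaccgtcTCACCCCACttcccaggt
Mvk, NF-Y box at -50 to -46 (chr5:114444210-114444232, + strand): atgtttgacCCAATctgtaaagg
Mvk, NF-Y box at -14 to -10 (chr5:114444246-114444268, + strand): agctctctgATTGGcctcaggaa
Pmvk, NF-Y box at -136 to -132 (chr3:89454396-89454418, + strand): tcaggttggCCAATtcacagcat
Mvd, NF-Y box at -60 to -56 (chr8:122443469-122443491, - strand): ctgtcgcctATTGGacagcacgg
Mvd, NF-Y box at -27 to -23 (chr8:122443436-122443458, - strand): gccagcgggCCAATcatatggca
Idi1, NF-Y box at -45 to -41 (chr13:8885552-8885574, + strand): ctccagctgATTGGcgagcccgg
Idi1, NF-Y box at -14 to -10 (chr13:8885583-8885605, + strand): caaggtgccATTGGctggcgacc
Ggps1, NF-Y box at -55 to -51 (chr13:14063530-14063552, - strand): tcttctaggCCAATcggtaaact
Ggps1, whose mRNA was lower in HB, thus had NF-Y boxes as Mvk and Idi1 did. A match shows only that these letters stand in the window.

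Fewer enzymes were called in the footprints than in the mRNA, and none of them higher. For RPF the study asked for the same size of change with an unadjusted p under 0.05. By these thresholds 0 of the 8 enzymes tested were higher in HB against a background of 1.58% of 11190 genes. One, Mvk, passed the threshold for lower (7.86% of all genes), but it passed the filter on low values through HF alone and had 0 reads in both HB libraries, so nothing is read from that call. With an adjusted p under 0.05, 0 of 8 were called (0.0% of all genes in each direction, limma). With voom on recovered reads, 77 of all genes and 0 of the 8 had an adjusted p under 0.05. At an unadjusted p under 0.05 limma found 1 of 8 members and 1122 of all genes, and voom on recovered reads found 1 of 8 members and called Fdps higher. The groups of 1 enzyme, Fdps, did not overlap with HB higher (9.07% of all genes) and those of 1, Idi1, did not overlap with HB lower (33.2%), leaving out Mvk, whose HB values are at 0 with limits above its HF values. Mvd was not tested, because its mean stayed under 1 RPKM. The median log2 fold change of the 8 was -0.46, next to -0.43 for all genes tested.

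**Figure D2:**
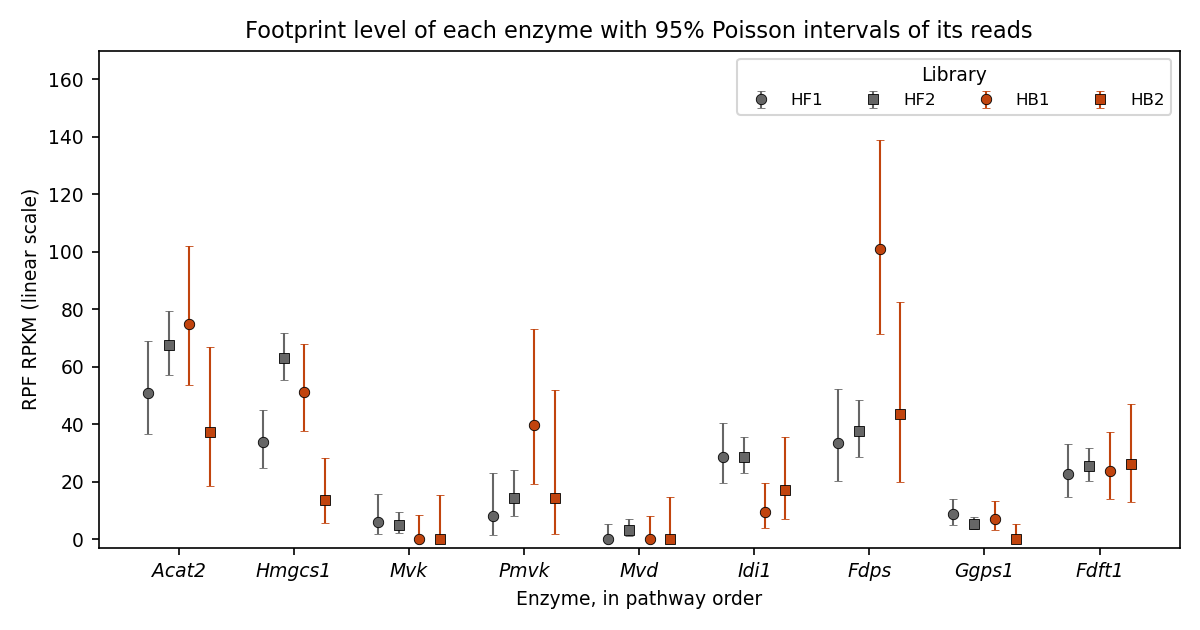
RPF RPKM (linear axis) of each enzyme, with grey points for HF libraries, orange points for HB libraries and bars for the exact 95% Poisson interval of the reads behind each value. The HF and HB intervals overlap for most enzymes, the HB1 value of Fdps (101) stands above both HF values, and both HB values of Mvk and Mvd are at 0.

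The depth behind the footprints was low. The 9 enzymes held 1076 RPF reads in all, and 5 of them had fewer than 20 reads in the HB libraries together. Intervals below are exact 95% Poisson intervals, and they cover counting error only.

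Fdps had 33.5 and 37.6 RPF RPKM in HF (19 and 58 reads) and 101 and 43.4 in HB (38 and 9 reads). The interval of HB1 (71.6 to 139) lay above those of HF1 (20.2 to 52.3) and HF2 (28.5 to 48.6), whereas that of HB2 (19.9 to 82.4) held both HF values. The log2 fold change of 0.88 ± 0.48 SE did not pass (adjusted p = 0.598, limma). Pmvk had 7.91 and 14.5 RPF RPKM in HF (3 and 15 reads) and 39.8 and 14.4 in HB (10 and 2 reads), with a change of 1.09 ± 0.64 SE (adjusted p = 0.613, limma). Its groups overlapped, so the rise seen for its mRNA was not resolved in the footprints. Fdps was called higher when libraries were shifted to a common median and with voom on the recovered reads, but its change was 0.031 with a common sum and 0.28 without HB1.

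In the main fit, Acat2 and Fdft1 had the smallest footprint changes of the 8. Acat2 had 50.9 and 67.5 RPF RPKM in HF (41 and 148 reads) and 74.9 and 37.3 in HB (40 and 11 reads), and the HB libraries enclosed the HF ones (-0.14 ± 0.44 SE, adjusted p = 0.913, limma). Fdft1 had 22.7 and 25.6 RPF RPKM in HF (26 and 80 reads) and 23.7 and 26.2 in HB (18 and 11 reads). Its change of 0.047 ± 0.34 SE (adjusted p = 0.964, limma) was the smallest of the 8, and the interval of HB2 (13.1 to 46.9) still allowed both a fall and a rise. The sign of both changes depended on scaling and on single libraries.

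Hmgcs1, Idi1 and Ggps1 had the lower mean footprints in HB, and 0 of the 3 passed. Hmgcs1 had 33.9 and 63.2 RPF RPKM in HF (47 and 239 reads) and 51.1 and 13.8 in HB (47 and 7 reads). HB2 alone was low (interval 5.55 to 28.4), and the change of -0.77 ± 0.71 SE (adjusted p = 0.701, limma) became 0.14 without it. Idi1 had 28.8 and 28.7 RPF RPKM in HF (32 and 87 reads) and 9.50 and 17.2 in HB (7 and 7 reads). The interval of HB1 (3.82 to 19.6) lay below those of HF1 (19.7 to 40.6) and HF2 (23.0 to 35.4), that of HB2 (6.92 to 35.5) did not, and the change of -1.11 ± 0.44 SE just missed the unadjusted threshold (adjusted p = 0.504, limma). Ggps1 had 8.73 and 5.47 RPF RPKM in HF (17 and 29 reads), 6.97 in HB1 (9 reads) and 0 in HB2, where 3 reads would have given 4.21. Its change of -1.49 ± 1.14 SE (adjusted p = 0.659, limma) rested on HB2 and was 0.0075 without it.

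Mvk and Mvd were at or near the detection limit. Mvk had 6.08 and 5.02 RPF RPKM in HF (4 and 9 reads) and 0 in both HB libraries, where 3 reads correspond to 6.88 and 12.5 RPKM. Mvk was called lower (adjusted p = 0.493, limma), but the HF values lay under the HB limits, so a fall of this size was not detectable at this depth. With Mvk set to those limits, the median log2 fold change of the 8 enzymes was -0.049 in place of -0.46. Mvd had 0 reads in HF1, 6 reads in HF2 (3.22 RPKM) and 0 reads in both HB libraries, where 3 reads correspond to 6.63 and 12.01 RPKM.

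The count of RPF calls moved with single libraries. Without HB2 the shallowest library was gone, and Fdps and Pmvk were called higher and Idi1 lower, with a median of 0.073 over the 8. Over all 11190 genes 524 were then called higher and 1588 lower, with a median of -0.26. Without HB1, Hmgcs1 was called lower, next to 2609 of all genes. Mvk passed in both settings and Ggps1 without HB1, each with 0 reads in the HB library left, so nothing is read from those calls. With no filter on low values, and with a mean of at least 5 RPKM, the 1 enzyme called was Idi1, lower in HB, and with voom Mvk was not called.

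In equally numbered libraries, the footprint to mRNA ratio was lower in both HB than in both HF libraries for 6 of 8 enzymes tested. These were Acat2, Hmgcs1, Pmvk, Idi1, Fdps and Fdft1, while 31.7% of 9455 genes showed this pattern. Ggps1 overlapped, and Mvk is left out of the count because its HB footprints were at 0. Whether equally numbered RNA and Ribo libraries share an animal is not stated. Their deviations had a correlation across genes of -0.00239 in HF and -0.0774 in HB. With the numbers crossed, the groups of Hmgcs1 and Pmvk overlapped, so their part of the count rests on the numbering. With the thresholds of the study for TE, a log2 change beyond 2 and an unadjusted p under 0.05, Idi1, 1 of 8, was called lower against a background of 4.6%, and 0 higher against 1.49%. Mvk passed these thresholds as well, with 0 footprint reads in both HB libraries, but its change was -0.85 at its detection limit in HB, which is no call. With an adjusted p under 0.05, 0 of 8 and 0.0% of all genes were called, while at an unadjusted p under 0.05 limma found 5 of 8, Mvk included, and 1154 of all genes. The median log2 change was -1.61 over the 8 enzymes and -0.35 over all genes tested, and it was -1.36 with Mvk set to its detection limit in HB. mRNA enters TE as the divisor, so the TE values are not independent of the mRNA changes above.

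**Figure D3:**
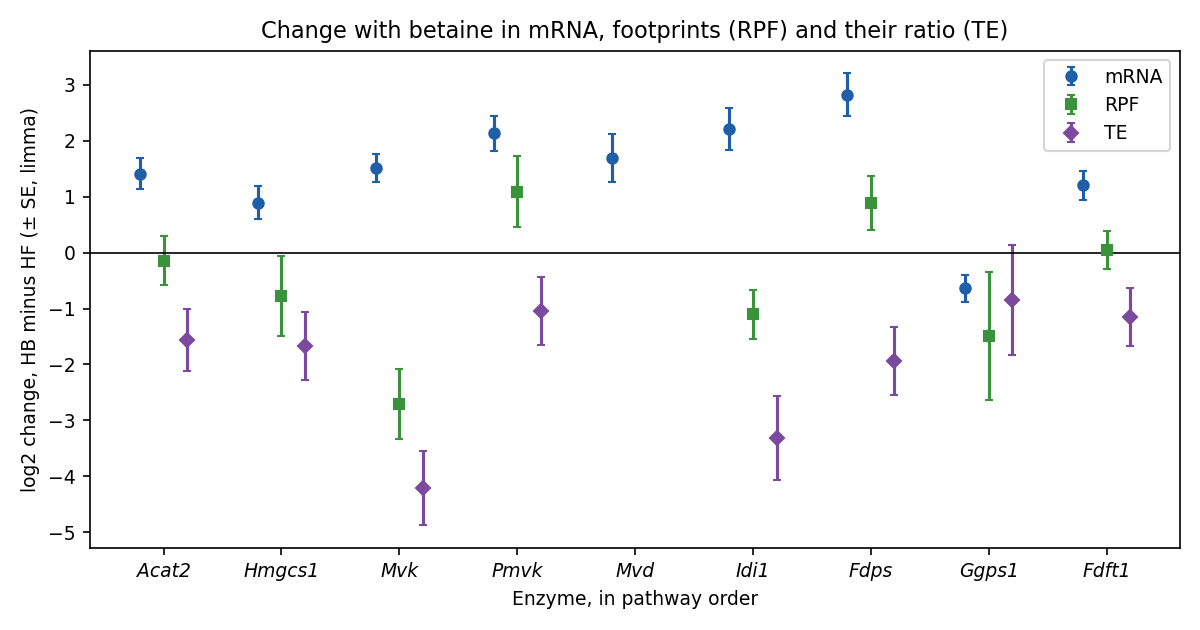
log2 change from HF to HB of mRNA (circles), RPF (squares) and TE (diamonds) for each enzyme, with bars for ± 1 SE from limma (n = 2 per group). The mRNA points lie above 0 for all enzymes except Ggps1 and the TE points lie below 0 for all 8 tested; the Mvk points for RPF and TE rest on HB libraries at 0, and Mvd was tested for mRNA only.

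Idi1 had TE values of 9.81 and 8.11 in HF and of 0.325 and 1.47 in HB. Both HF ratios were the highest of the 9 enzymes and both HB ratios were far below them (log2 change -3.32 ± 0.74 SE, adjusted p = 0.328, limma). The HB ratios rested on 7 RPF reads each, and the change was -2.29 without HB1 and -4.34 without HB2. Mvk had TE values of 3.08 and 2.34 in HF and was at 0 in both HB libraries, where 3 reads per library would have given 0.776 and 1.86. The HB2 limit lay close to the HF ratios, which themselves rested on 4 and 9 reads, so no fold is given for Mvk (adjusted p = 0.328 for the fit with the constant, limma).

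Fdps, Acat2 and Hmgcs1 had an unadjusted p under 0.05 but a log2 change smaller than 2. Fdps had TE values of 1.12 and 1.60 in HF and of 0.337 and 0.347 in HB (-1.94 ± 0.61 SE, adjusted p = 0.364, limma). How close its HB ratios lie to each other depends on the numbering of the libraries. Acat2 had TE values of 1.61 and 1.70 in HF and of 0.639 and 0.473 in HB (-1.56 ± 0.55 SE, adjusted p = 0.378, limma). Hmgcs1 had TE values of 2.14 and 3.69 in HF and of 1.22 and 0.582 in HB (-1.67 ± 0.61 SE, adjusted p = 0.378, limma). For these 3 the groups did not overlap in equally numbered libraries, with the mRNA higher in HB in each case. With the RNA and Ribo numbers crossed, the SE rose to 0.93 for Fdps, 0.72 for Acat2 and 0.96 for Hmgcs1 at unchanged log2 changes. The unadjusted p of these 3 therefore rests on the numbering as well.

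Fdft1 had TE values of 2.24 and 1.97 in HF and of 0.752 and 1.08 in HB (-1.16 ± 0.52 SE, adjusted p = 0.437, limma). Pmvk had TE values of 0.980 and 1.61 in HF and of 0.711 and 0.483 in HB (-1.05 ± 0.60 SE, adjusted p = 0.516, limma). Both lay lower in HB without overlap in equally numbered libraries, and neither passed. Ggps1 had TE values of 2.80 and 1.44 in HF, 3.50 in HB1 and 0 in HB2, so its groups overlapped (-0.85 ± 0.98 SE, adjusted p = 0.749, limma). Without HB1, Hmgcs1 was called lower in addition to Idi1, next to 1266 of all 9455 genes, where 435 were called with all libraries. Ggps1 and Mvk passed there too, with 0 reads in the HB library left, so nothing is read from those calls. With no filter on low values the call of Idi1 was lost, and among genes with a mean of at least 5 RPKM in each assay Mvk was not tested and Idi1 remained called.

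**Figure D4:**
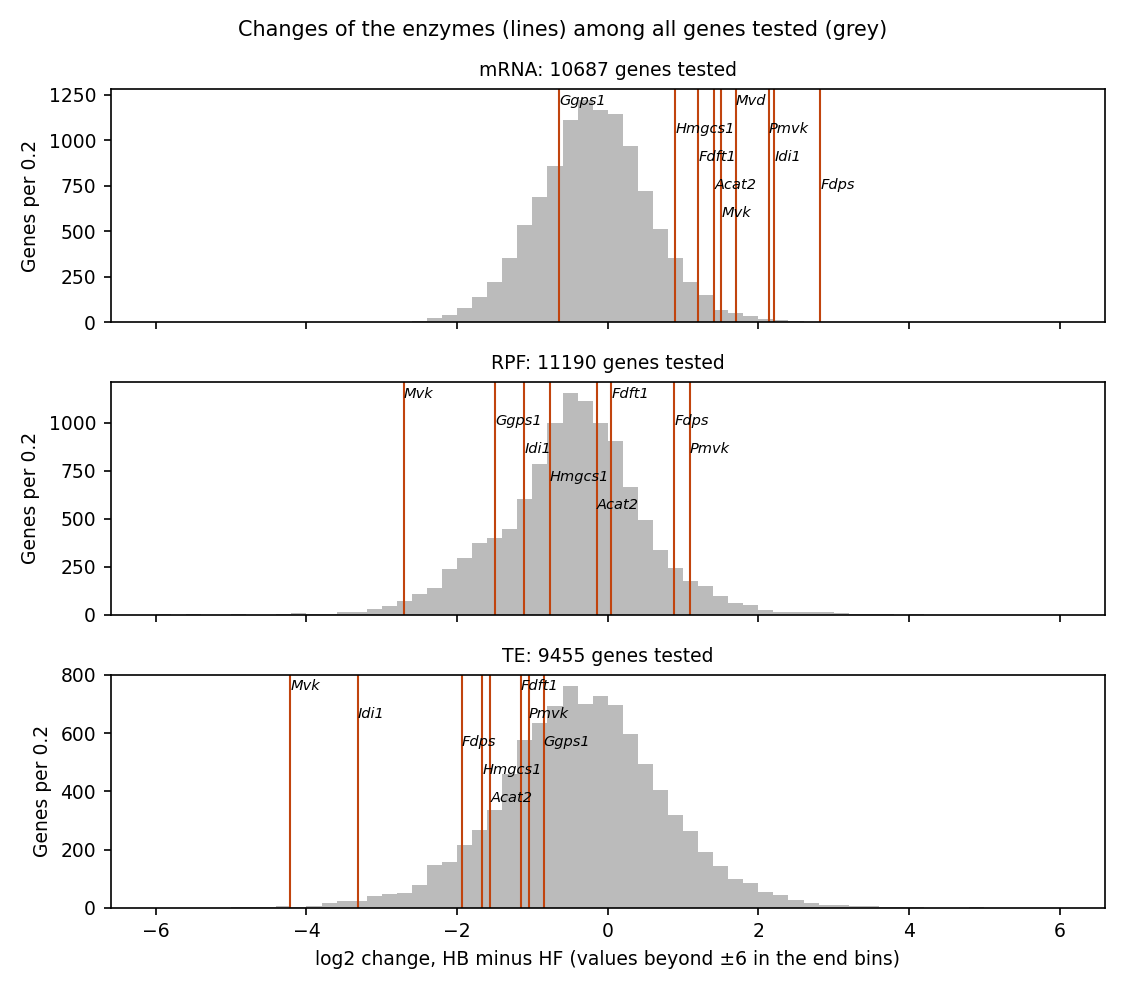
Number of genes (grey bars, per 0.2 of log2 change from HF to HB) for mRNA, RPF and TE, with an orange line at the change of each enzyme tested. For mRNA, 8 of the 9 lines lie right of the median of all genes. For RPF the 8 lines run from -2.71 (Mvk) to 1.09 (Pmvk), and for TE all 8 lines lie left of the median of -0.35. The Mvk lines for RPF and TE rest on HB libraries at 0.

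Reads of some enzymes cannot be assigned to them alone. Of all 28-base windows in the coding sequence, which is about the length of a footprint, the share that also occurs in another GENCODE gene was 98.4% for Fdps, 79.6% for Acat2 and 79.6% for Idi1. It was 52.8% for Fdft1, 49.5% for Ggps1 and 32.3% for Hmgcs1, and 0 for Mvk, Pmvk and Mvd. In 50-base windows of the transcript the shares fell to 86.4% for Fdps, 45.9% for Acat2 and 30.5% for Idi1. How the authors counted reads that map to several genes is not given in the sources used here, so the levels of the first 6 are uncertain.

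**Figure D5:**
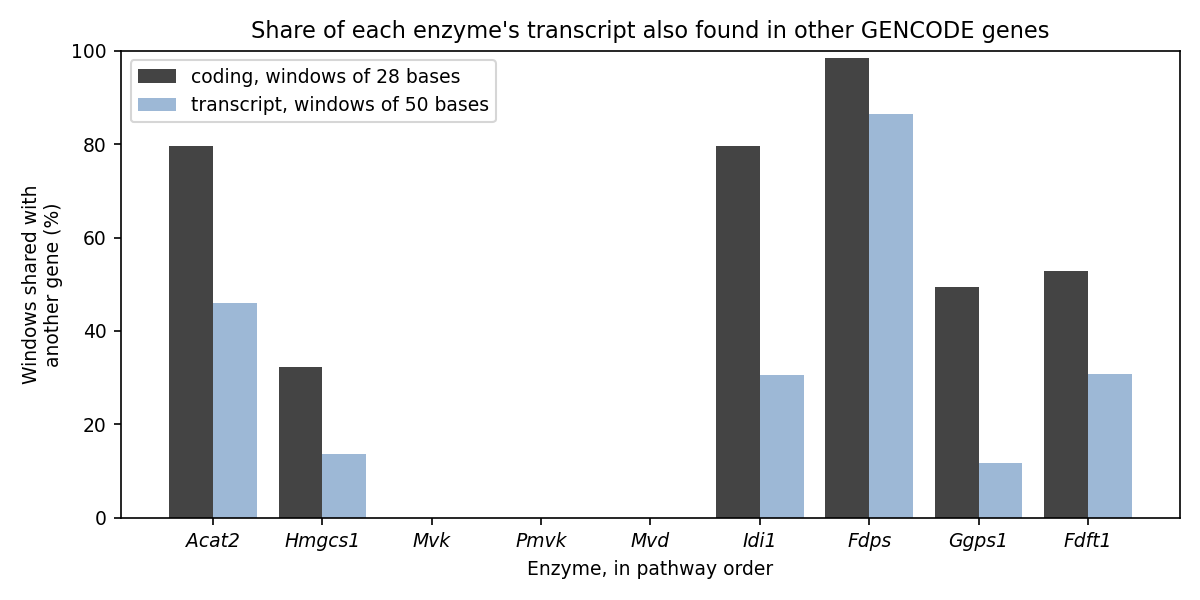
Percent of windows of each enzyme that also occur in another GENCODE gene, for 28-base windows of the coding sequence (dark bars) and 50-base windows of the transcript (light bars). Fdps has the highest share in both, and Mvk, Pmvk and Mvd are at 0.

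The gene that shares these windows with Acat2 is Acat3, a close paralog. Acat3 mRNA was at 93.0 and 107 RPKM in HF and at 111 and 114 RPKM in HB (log2 fold change 0.17 ± 0.25 SE, adjusted p = 0.642, limma), and did not pass. Acat3 RPF was at 44.0 and 52.3 RPKM in HF and at 27.4 and 7.08 RPKM in HB (-1.69 ± 0.67 SE, adjusted p = 0.504, limma), lower in HB without overlap, and its part in the RPF and TE of Acat2 was not tested. Gm43738 shares 1124 exon bases with Fdps on the same strand (26.7% of the exon bases of Fdps) and holds 84.6% of its 28-base windows, and its part in the values of Fdps was not tested. Other genes overlap on the opposite strand, and the RNA-seq kit does not mark strand. Ctsb, which encodes cathepsin B, shares 774 exon bases with Fdft1 (18.3% of the exon bases of that gene), and Ctsb mRNA was at 75.8 and 83.9 RPKM in HF and at 143 and 130 RPKM in HB (0.77 ± 0.25 SE, adjusted p = 0.0471, limma). Arid4b shares 257 exon bases with Ggps1 (5.44%), and Arid4b mRNA was at 5.05 and 5.95 RPKM in HF and at 2.36 and 1.67 RPKM in HB (-1.11 ± 0.25 SE, adjusted p = 0.0135, limma). Both neighbours lay in the direction of the enzyme they overlap, and their part in the values of Fdft1 and Ggps1 was not tested.

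On GRCm38 (GENCODE M21), Fdps (chr3:89093588-89101959, - strand) and Pmvk (chr3:89454541-89469013, + strand) lie on chromosome 3. Hmgcs1 (chr13:119690379-119708260, + strand), Idi1 (chr13:8885501-8892451, + strand) and Ggps1 (chr13:14050659-14063488, - strand) lie on chromosome 13. Acat2 (chr17:12942890-12960747, - strand), Mvk (chr5:114444269-114460591, + strand), Mvd (chr8:122433601-122443422, - strand) and Fdft1 (chr14:63145150-63179578, - strand) lie on chromosomes of their own. All 9 are protein-coding genes.

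The enzymes that turn squalene into cholesterol were counted beside the members. Of 11 listed, 6 rose in HB by the thresholds of the study against 2.3% of all genes, and 0 fell against 6.56%. With the adjusted p 9 rose against 5.01%. The median log2 fold change was 1.59, next to -0.19 for all genes tested. Sqle, among those 9, was at 0.843 and 0.708 RPKM in HF. It passed the filter on low values through HB alone, so nothing is read from its call. Cyp51, the sterol 14-demethylase, was at 2.01 and 2.21 RPKM in HF and at 19.9 and 9.10 RPKM in HB (log2 fold change 2.22 ± 0.34 SE, adjusted p = 0.00526, limma). In RPF 1 of 11 was called, Cyp51 lower, which is near the 7.86% of all genes called lower, with a median of -0.72 next to -0.43 for all genes. In TE 4 of 11 were called lower against 4.6% of all genes, Cyp51, Tm7sf2 and Dhcr7 among them, with a median of -2.30 next to -0.35. The footprints of Cyp51 were at 1.79 RPKM in HB1 and 1.62 in HB2. On a length of 1 kb, 3 reads would give 11.7 RPKM in HB1 and 21.1 in HB2. The RPF and TE calls of Cyp51 thus rest on few HB reads, and little is read from them. Of the 9 pathway members and these 11 enzymes, Ggps1 alone had a lower mean mRNA level in HB.

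Genes that feed, use or sense the pathway were counted in the same way. Of 13 genes of the isoprenoid branches (dolichol, ubiquinone and protein prenylation), 0 rose and 1 fell in mRNA, Rabggtb, a subunit of the transferase that prenylates Rab proteins (43.9 and 37.9 RPKM in HF, 19.0 and 16.5 RPKM in HB, adjusted p = 0.0111, limma), and the median was 0.22. A single gene of 13 is close to the 6.56% of all genes called lower. Over the 7 tested genes that supply acetyl-CoA or are paralogs of members, the median log2 fold change was 1.12. Of 9 tested genes of sterol sensing, 0 were called, and Insig1, which holds the SREBP complex in the endoplasmic reticulum, passed with the adjusted p alone (44.0 and 43.9 RPKM in HF, 212 and 68.9 RPKM in HB, adjusted p = 0.0372, limma). Srebf2, which encodes SREBP2, was at 5.14 and 4.40 RPKM in HF and at 6.74 and 4.83 RPKM in HB (0.22 ± 0.26 SE, adjusted p = 0.555, limma), with overlapping groups.

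Some other sample properties moved with the groups. The summed hepatocyte markers given above were higher in both HB libraries. Of the 8, 5 were higher without overlap, next to 24.8% of all genes, and 0 were called. Their median log2 fold change was 0.55, next to -0.19 for all genes tested. These enzymes vary over the day, so 13 clock genes were read beside them. Of the 12 tested, 2 were called lower in HB mRNA (Per2 and Per1; 6.56% of all genes) and 5 with the adjusted p (12.7% of all genes). Per2 was at 73.4 and 78.6 RPKM in HF and at 17.3 and 24.2 RPKM in HB, and Per1 at 59.5 and 59.9 RPKM in HF and at 17.1 and 26.9 RPKM in HB. The 6 stellate cell and fibroblast markers summed to 33.5 and 32.0 RPKM in HF and to 69.8 and 45.2 RPKM in HB, none of them at 0 in every library. Of the 5 tested, 3 had a log2 fold change above 0 and 2 below, 0 were called, and Dcn alone was higher without overlap and Des alone lower. The 4 lymphocyte markers summed to 4.80 and 7.21 RPKM in HF and to 2.69 and 2.60 RPKM in HB. Among the markers of other cell types, the 5 endothelial ones had a median log2 fold change of -1.25 in RPF, next to -0.43 for all genes. Of these, 2 were called lower (Pecam1 and Stab2), against 7.86% of all genes. Their mRNA had a median of -0.40 with 0 called. The 8 Kupffer cell and macrophage markers had a median of -0.71 in RPF and of -1.32 in TE, next to -0.43 and -0.35 for all genes. Cd68 alone was called lower in both, against 7.86% of all genes in RPF and 4.6% in TE. Their mRNA went the other way, with a median of 0.22, 5 changes above 0 and 3 below. Cd5l alone passed as higher in mRNA with the adjusted p, against 5.01% of all genes. The part of collection time, cell makeup and depth in the changes of the enzymes was not tested.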

How the data were processed

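Liver RNA-seq and Ribo-seq were analysed in 8 libraries, 2 per group and assay. The authors used FANSe2 to map reads to mm10 and deposited 1 RPKM value per gene in each library. The authors took their differential genes from edgeR. RPF counting rules are not given in the sources used here, and the lengths behind RPKM differ between the assays for 4 members, which affects the level of TE and, through the added constant, the fitted change of low genes. Library totals and reads were recovered from the RPKM steps (99.99% of genes above 0 came out whole within 0.005 reads) and served for intervals, for limits of 3 reads and for voom. From the 24539 RNA-seq entries, the 4 whose symbol occurs more than once were dropped.

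Genes averaging 1 RPKM or more were tested with limma 3.58.1 (R 4.3.3; lmFit, eBayes with trend, two-sided, group only) on log2(RPKM + 1), which understates changes of low genes; TE was log2((RPF + 1)/(mRNA + 1)) of equally numbered libraries. Because RPKM are not counts, the edgeR test of the authors was not used. p-values were adjusted by Benjamini-Hochberg over all genes tested. With 2 against 2 libraries an exact two-sided permutation test cannot go below 0.333. Scripts were tested on simulated data. Motifs and windows were searched in RefSeq promoters and GENCODE M21 transcripts. All 9 members are named, and up to 4 called genes of each other list, of which some are not reported here. Members, lists and motifs were chosen with earlier results of these data known. The alternatives are named in the closing section.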

Additional observations from a re-analysis of the deposited data

How the results depend on the processing

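For mRNA, the direction of each enzyme held under every alternative in which it was tested. The number called was 5 and became 0 with no filter and ranged from 4 to 8 when 1 library was left out, and the median log2 fold change of 1.51 became 1.78 with a common median, 1.85 with a pseudocount of 0.1 and 2.16 with voom on recovered reads, with a range of 1.13 to 1.70 when 1 library was left out. For RPF, the number past the thresholds was 1, Mvk, and became 0 with an adjusted p, 2 with a common median (349 higher and 421 lower over all genes) and 2 with a common sum (2816 of 11657 genes lower), with a range of 1 to 4 when 1 library was left out, and the call of Mvk was lost with no filter and with voom. The RPF median of -0.46 became -1.21 with a common sum, next to -1.19 for all genes, and ranged from -0.72 to 0.073 when 1 library was left out, with the sign reversed without HB2. The RPF change of Acat2 became 0.18 with a common median, 0.083 with voom on recovered reads, and ranged from -0.64 to 0.35 when 1 library was left out (0.35 without HB2, 0.056 without HF2). That of Fdft1 became -0.80 with a common sum, and ranged from -0.038 to 0.13 when 1 library was left out (-0.024 without HB2, -0.038 without HF1). When 1 library was left out, the RPF change of Hmgcs1 ranged from -1.68 to 0.14, that of Ggps1 from -2.99 to 0.0075, and the TE change of Ggps1 from -2.28 to 0.58, with the lowest value without HB1 and the highest without HB2 in each case. For TE, the number past the thresholds was 2 with Mvk included and became 0 with an adjusted p, 5 with a common sum, 1 with a mean of at least 5 RPKM, 1 with no filter and 1 with a ratio without constant, with a range of 2 to 4 when 1 library was left out. The TE median of -1.61 became -2.46 with a common sum, next to -1.03 and 1346 genes called lower over all 9652 genes, and ranged from -2.05 to -1.38 when 1 library was left out. The causes were not tested, apart from settings that leave fewer genes or libraries. The deviations of equally numbered HF and HB libraries had a correlation across genes of -0.104 for mRNA, -0.0138 for RPF and 0.0127 for TE, so the numbers were not taken as pairs. With a replicate block, 7 enzymes were called for mRNA (498 genes higher and 1229 lower in all), 1 for RPF and 2 for TE. An interaction model and crossed RNA and Ribo numbers each left 2 for TE, and a fit with no variance trend left 5 for mRNA, 1 for RPF and 2 for TE. A crossed replicate block, added after seeing the data, gave 7 for mRNA (474 higher and 1303 lower). RPF depth limits all TE values, above all those of Mvk, Mvd and Ggps1.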

Other observations

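The 5 genes whose profile over the 8 libraries was most like the mean of the 9 enzymes were Pgk1 (Pearson r = 0.996), Fads2 (0.989), Cyp2j5 (0.988), Coasy (0.987) and Adipor2 (0.982). They were ranked among 3321 genes with a mean of at least 10 RPKM in each assay, on log2(RPKM + 1) centred within each assay. The correlations describe libraries that share their assay and depth, and no test was made. Fads2, the fatty acid delta-6 desaturase, was at 38.5 and 36.2 RPKM of mRNA in HF and at 551 and 203 in HB, with RPF of 309 and 492 RPKM in HF and 371 and 138 in HB. Pgk1, a glycolytic kinase, was at 40.1 and 39.0 RPKM of mRNA in HF and at 184 and 105 in HB, with RPF of 153 and 217 RPKM in HF and 147 and 81.1 in HB. In both genes, mRNA was higher in each HB library and highest in HB1, and RPF was lowest in HB2. That follows from their choice by likeness to the mean of the 9 enzymes and is no separate result. This mean includes Mvk and Mvd, with 0 footprint reads in both HB libraries, and Ggps1, with 0 in HB2. Among the enzymes, RPF was lowest in HB2 for Acat2, Hmgcs1 and Ggps1.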
